A study of Mus musculus with 12 samples.

Results

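Cxcl1, Cxcl2, Cxcl3 and Cxcl5 encode chemokines that draw neutrophils, Cxcr2 encodes the neutrophil receptor that binds them, and Csf3 encodes the growth factor G-CSF, which drives the output of neutrophils from bone marrow. These 6 genes were taken by symbol from the 49585 genes of the count matrix, and all 6 were among the 18556 genes with enough counts to be tested. The RNA came from whole lungs of C57BL/6J mice that carried an MO4 melanoma under the skin, sequenced in 12 libraries of 4 groups with 3 libraries each. The young anti-PD-1 group was 2 months old and had anti-PD-1. The other 3 groups were 22 months old: aged control had a rat control antibody, aged anti-PD-1 had anti-PD-1 alone, and combination had anti-PD-1 plus anti-IL-21 receptor. PD-1 is a brake on T cells that anti-PD-1 releases, while IL-21 is secreted by CD4 T cells and acts on lymphocytes. All groups bore the tumour, and antibody was injected on days 3, 7 and 11 after inoculation where the labels give days, which is for anti-PD-1 and the control antibody. Young mice with the control antibody were not among the groups, so age was compared under anti-PD-1 only, and antibody effects in aged mice only.

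Chemokines with the ELR sequence motif, such as CXCL1, CXCL2, CXCL3 and CXCL5, bind CXCR2 on neutrophils and guide them out of blood into tissue. Their genes are switched on through NF-kB by interleukin-1, TNF and bacterial products, and IL-17 lengthens the life of their mRNAs. In lung they are made by macrophages, epithelium, endothelium and neutrophils themselves.

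Cxcl1, Cxcl2 and Cxcl3 are the members that differed between aged groups at the threshold given below. Their promoters are shown because they carry a pair of short sequences in common. The bases are from RefSeq (GRCm38.p6, plus strand, 5′ to 3′) and run from 150 to 21 bases before its start of transcription. For Cxcl2 that start lies downstream of the gene start in the count matrix. The stretch shown ends at 90903878, while the gene starts at 90903871 there. Capitals mark GGAATTTCC, a form of the site that NF-kB binds, and ATAAAAGG, a form of the TATA box.
Cxcl1, chr5:90891095-90891224: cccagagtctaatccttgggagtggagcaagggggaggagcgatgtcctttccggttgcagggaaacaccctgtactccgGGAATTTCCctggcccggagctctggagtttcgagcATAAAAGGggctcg
Cxcl2, chr5:90903749-90903878: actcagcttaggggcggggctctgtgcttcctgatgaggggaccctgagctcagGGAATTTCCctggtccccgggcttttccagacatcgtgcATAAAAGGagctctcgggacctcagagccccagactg
Cxcl3, chr5:90785951-90786080: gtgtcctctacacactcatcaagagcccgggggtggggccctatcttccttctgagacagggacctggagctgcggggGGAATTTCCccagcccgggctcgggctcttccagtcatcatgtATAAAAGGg
GGAATTTCC began 70, 96 and 72 bases before the RefSeq start of Cxcl1, Cxcl2 and Cxcl3, and ATAAAAGG began 34, 57 and 29 bases before it. On either strand, GGAATTTCC was found in 0.317% and ATAAAAGG in 1.76% of 32851 promoter windows of 300 bases. Both were found in 4 windows (0.0122%), those of Cxcl1, Cxcl2, Cxcl3 and the predicted gene Gm38531. The pair of motifs was chosen after these promoters had been read, so their rarity elsewhere is a description. The promoter window of Cxcr2 held neither sequence. Promoters of 4 of the 6 genes were in the table used, which did not list Cxcl5 and Csf3.

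The 4 chemokine genes lie in 1 cluster on mouse chromosome 5 (mm10), all on the plus strand. From its start the cluster holds Cxcl5 (chr5:90759360-90761624), Ppbp, Pf4, Cxcl3 (chr5:90786103-90789600), Cxcl15, Cxcl1 (chr5:90891241-90893115) and Cxcl2 (chr5:90903871-90905938), over 146.578 kb. Cxcr2 lies at chr1:74153989-74161246 and Csf3 at chr11:98701263-98703629. Cxcl2 and Cxcl3 have stretches of identical sequence: 5.84% of the 50-base stretches in the annotated transcripts of Cxcl2 also occur in those of another gene, which is Cxcl3. Reads from these stretches could not be assigned to 1 of the pair with certainty.

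Levels are CPM, read counts scaled to a common library size with TMM factors, and a gene is called changed where its adjusted p from edgeR's quasi-likelihood test, by the Benjamini-Hochberg method over 18556 genes, was under 0.05. Log2 fold changes are given ± SE from 1 fit to the 12 libraries. Counts summed to between 16021877 and 22058620 per library. Whether every library is a separate mouse is not stated, and p-values therefore describe the spread between these libraries, which may be partly technical. Lung identity was plain, with 8 genes of type 2 alveolar cells summing to between 14619 and 27410 CPM, while 5 melanocyte genes summed to between 3.86 and 9.61 CPM. In whole tissue, fewer cells of a type and less RNA per cell cannot be told apart.

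Cxcl2, a chemokine released early by macrophages and neutrophils, was the most abundant ligand. It stood at 208, 223 and 243 CPM in the young anti-PD-1 libraries, at 272, 651 and 588 in the aged control, at 107, 143 and 127 with anti-PD-1 in aged mice and at 601, 786 and 619 in the combination libraries, each in the order of replicates 1, 2 and 3. All 3 aged anti-PD-1 libraries lay below the other 9, and aged control replicate 1 lay well below the other 2 of its group. Cxcl1, a chemokine of stromal, epithelial and myeloid cells, stood at 17.4, 12.6 and 16.6 CPM in young anti-PD-1, at 47.5, 44.1 and 53.7 in aged control, at 8.90, 10.1 and 11.3 in aged anti-PD-1 and at 23.9, 49.6 and 50.1 in combination libraries. The 3 aged anti-PD-1 libraries were again the lowest 3 of the 12, and combination replicate 1 was lower than the other 2 of its group.

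Cxcl3, a close relative of Cxcl2, gave 6.94, 6.45 and 5.98 CPM in young anti-PD-1, 7.74, 20.3 and 22.6 in aged control, 3.36, 2.26 and 5.09 in aged anti-PD-1 and 24.4, 27.2 and 13.7 in combination libraries. It had the same lowest 3 libraries, and aged control replicate 1 was again low in its group. Cxcl5, a ligand made mostly by epithelium and platelets, was low throughout: 2.97, 2.90 and 2.16 CPM in young anti-PD-1, 3.32, 5.25 and 2.62 in aged control, 2.39, 1.51 and 1.15 in aged anti-PD-1 and 3.26, 2.30 and 5.67 in combination libraries. The groups of Cxcl5 overlapped, except aged anti-PD-1 with aged control.

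Cxcr2 had another order of groups. It stood at 9.59, 17.8 and 10.5 CPM in young anti-PD-1, 31.6, 80.2 and 36.6 in aged control, 36.3, 41.5 and 30.7 in aged anti-PD-1 and 32.6, 50.4 and 45.5 in combination libraries. All 9 aged libraries lay above the 3 young ones, and aged control replicate 2 was far above the rest. Csf3 was near the limit of detection, with 107 counts in all 12 libraries: 9, 0 and 5 counts in young anti-PD-1, 15, 19 and 11 in aged control, 4, 2 and 6 in aged anti-PD-1 and 7, 18 and 11 in combination libraries. It passed the filter on low counts through the aged control and combination libraries, so its presence among the tested genes depends on the groups where it is high.

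**Figure D1:**
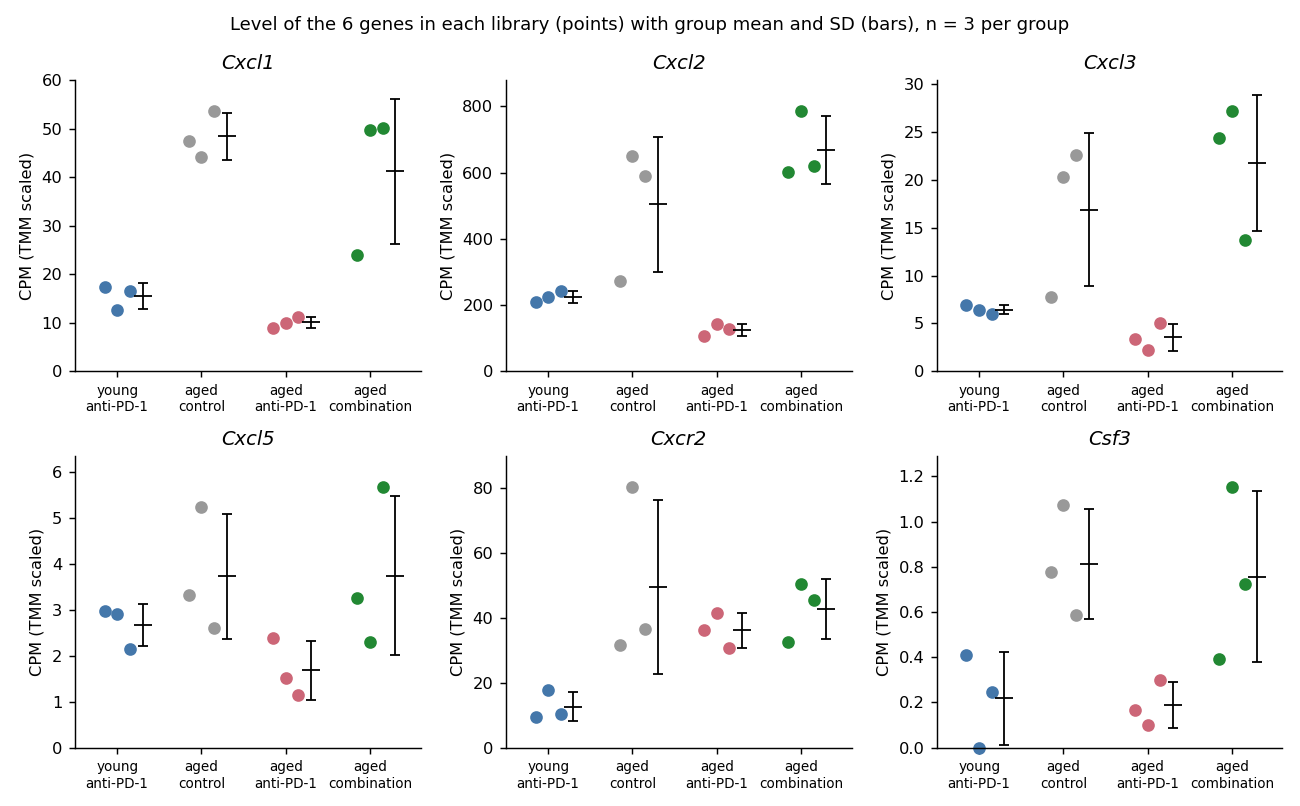
CPM (TMM scaled, linear axis from 0) of the 6 genes in each of the 12 libraries, as points by group, with the group mean and SD as bars (n = 3). Cxcl1, Cxcl2 and Cxcl3 are lowest in the 3 aged anti-PD-1 libraries, while Cxcr2 is lowest in the 3 young libraries.

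Per length of mRNA, Cxcl2 made up most of the summed level of the 4 ligands in every group: 89.2 ± 1.58% in young anti-PD-1, 85.6 ± 4.60% in aged control, 88.1 ± 1.98% in aged anti-PD-1 and 90.0 ± 1.24% in combination libraries (SD, n = 3 each). Cxcl1 made up between 6.40% and 10.9% as group means, Cxcl3 between 2.78% and 3.20%, and Cxcl5 between 0.369% and 0.865%. The sum of the 4 ligands, in CPM per kb, was 227 ± 14.7 in young anti-PD-1, 524 ± 191 in aged control, 128 ± 16.1 in aged anti-PD-1 and 670 ± 104 in combination libraries. Cxcl2 was thus the main ligand mRNA in all 4 groups, at summed levels that ran from 111 to 789 CPM per kb over single libraries.

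In aged mice, anti-PD-1 went with lower levels of the 3 main ligands. Compared with the control antibody, Cxcl1 fell by 2.27 ± 0.24 on the log2 scale (4.81-fold lower, adjusted p = 0.00127), Cxcl2 fell by 2.00 ± 0.26 (4.01-fold lower, adjusted p = 0.00319) and Cxcl3 fell by 2.24 ± 0.40 (4.72-fold lower, adjusted p = 0.00745). In each of the 3 genes every aged anti-PD-1 library lay below every aged control library. How many of all genes separate in this way was not counted, so the separation is a description only. By p, Cxcl1 ranked 5 and Cxcl2 ranked 16 among the 18556 genes. Of the 6 genes 3 were called lower and 0 higher, where 5.58% of all genes were called lower and 5.34% higher. The median log2 fold change of the 6 was -2.04. It rests in part on Csf3 (-2.07), which passed the filter through groups where it was high. All 4 mesothelial markers were called lower here too (median -1.65). They summed to 64.7 to 96.2 CPM in aged anti-PD-1 and 173 to 311 CPM in aged control libraries. Msln and Upk3b stayed called in every fit that left out a library. Between combination and aged anti-PD-1 the median of the 4 was 0.54, with 0 called. The part of tissue make-up in the ligand fall was not tested.

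The other 3 genes were not called in this comparison. Csf3 gave -2.07 ± 0.69 (adjusted p = 0.0692), a size like that of the ligands on far fewer counts, and its groups did not overlap. Cxcl5 gave -1.13 ± 0.37 (adjusted p = 0.0633) and was called by DESeq2 (adjusted p = 0.0250) and without the filter on low counts (adjusted p = 0.0371). Cxcr2 gave -0.45 ± 0.33 (adjusted p = 0.399), and without aged control replicate 2 it gave 0.084. A fall of the receptor was thus not detected, although the SE leaves room for one.

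With the IL-21 receptor blocked as well, the same 3 ligands were higher than under anti-PD-1 alone. Cxcl2 rose by 2.41 ± 0.26 (5.32-fold, adjusted p = 0.00108, rank 7 by p), Cxcl1 by 2.03 ± 0.24 (4.09-fold, adjusted p = 0.00182) and Cxcl3 by 2.61 ± 0.40 (6.10-fold, adjusted p = 0.00541). All 3 combination libraries lay above all 3 aged anti-PD-1 libraries for each of them. How many of all genes separate so was again not counted. Of the 6 genes 3 were called higher and 0 lower, where 4.67% of all genes were called higher and 4.35% lower. The median of the 6 was 1.99 and again rests in part on Csf3 (1.96). This comparison and the one before it share the aged anti-PD-1 libraries, so low values there enter both. Red cell transcripts differed here too: 4 of 5 erythroid markers were higher in the combination (median 1.39), and haemoglobin took 1.76% to 3.98% of its counts against 1.06% to 1.30% in aged anti-PD-1 libraries. Of those 4, 3 stayed called without combination replicate 2 or aged anti-PD-1 replicate 1, and the part of blood content in the ligand rise was not tested.

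Csf3 gave 1.96 ± 0.71 (adjusted p = 0.0968) and Cxcl5 gave 1.14 ± 0.37 (adjusted p = 0.0702). Cxcl5 was called by DESeq2 (adjusted p = 0.0265) and without the filter (adjusted p = 0.0431). Cxcr2 gave 0.24 ± 0.33 (adjusted p = 0.686), with overlapping groups. The calls of Cxcl1, Cxcl2 and Cxcl3 in both comparisons held under every alternative tried, leaving out each library included.

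The combination and aged control groups, which share no libraries, were not told apart in any of the 6 genes. Log2 fold changes were -0.24 ± 0.22 for Cxcl1, 0.41 ± 0.25 for Cxcl2, 0.37 ± 0.36 for Cxcl3, 0.00 ± 0.36 for Cxcl5, -0.21 ± 0.33 for Cxcr2 and -0.11 ± 0.60 for Csf3, and the groups overlapped in each. In this comparison edgeR called 0% of the tested genes higher and 0% lower. At an unadjusted p under 0.05 there were 1228 genes, with 0 of the 6 among them, and DESeq2 called 78 genes and limma-voom 0, again with 0 of the 6. These SEs do not exclude moderate differences, least of all for Csf3.

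**Figure D2:**
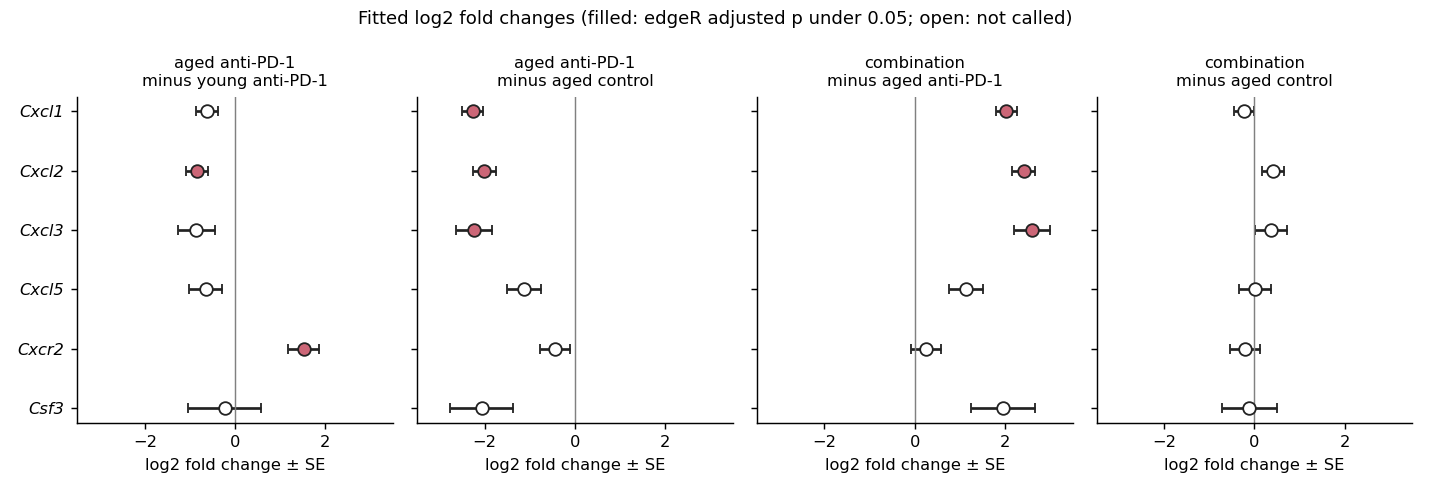
Log2 fold change ± SE (x axis) of the 6 genes (y axis) in 4 comparisons, with filled points where the edgeR adjusted p was under 0.05. Cxcl1, Cxcl2 and Cxcl3 lie near -2 for aged anti-PD-1 minus aged control and at 2.03 to 2.61 for combination minus aged anti-PD-1, whereas Cxcr2 stands out only against the young group.

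Between ages under anti-PD-1 the receptor and a ligand moved in opposite directions. Cxcr2 was 2.86-fold higher in the aged anti-PD-1 group than in the young one (log2 fold change 1.52 ± 0.35, adjusted p = 0.0148), with no overlap. Cxcl2 fell by 0.84 ± 0.25 (1.79-fold lower, adjusted p = 0.0387), also with no overlap. Of the 6 genes 1 was called higher and 1 lower, where 8.09% of all genes were called higher and 7.16% lower. Neither call was firm: that of Cxcl2 was lost on leaving out any 1 of the 6 libraries (adjusted p from 0.0580 to 0.142), and that of Cxcr2 without young replicate 1 or 3 (adjusted p up to 0.0667).

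The remaining chemokines had log2 fold changes of the same sign as Cxcl2 without being called: -0.63 ± 0.24 for Cxcl1 (adjusted p = 0.0973), -0.86 ± 0.40 for Cxcl3 (adjusted p = 0.177) and -0.66 ± 0.37 for Cxcl5 (adjusted p = 0.260). The groups of Cxcl1 and Cxcl3 did not overlap. Both genes were called by edgeR when only the 2 groups were fitted (adjusted p = 0.0191 and 0.0402). Csf3 gave -0.23 ± 0.81 (adjusted p = 0.880), so a difference was not detectable at this depth. The median over the 6 was -0.64.

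To order all 4 groups, the young group was also set against the other aged groups, which differ from it in age and in antibody at once. Aged control libraries had higher Cxcl1 (1.64 ± 0.23), Cxcl2 (1.17 ± 0.25), Cxcl3 (1.38 ± 0.38) and Cxcr2 (1.97 ± 0.35), with 8.50% of all genes called in either direction. The call of Cxcl3 (adjusted p = 0.0404) was lost in 5 of 6 fits that left out a library, all but that without aged control replicate 1, and also with limma-voom, without the filter and with the replicate block (adjusted p up to 0.158). The call of Cxcl2 was lost without aged control replicate 2, young replicate 1 or young replicate 2 (adjusted p up to 0.0547) and without the filter (0.0586), while those of Cxcl1 and Cxcr2 held in all of these fits. Combination libraries had higher Cxcl1 (1.40 ± 0.23), Cxcl2 (1.57 ± 0.25), Cxcl3 (1.75 ± 0.38) and Cxcr2 (1.76 ± 0.35), with 13.7% of all genes called; of these, the call of Cxcl3 was lost without the filter (adjusted p = 0.0563). For Cxcl1 the order from low to high was aged anti-PD-1 and young anti-PD-1, which were not told apart in the fit to all 12 libraries. Then came aged control and combination, which were not told apart either. Cxcl3 had the same order, with the step from young to aged control resting on the weak call above. For Cxcl2 the step from aged anti-PD-1 to young was called as well, and both it and the step to aged control rest on calls that 1 library can remove. For Cxcr2 the young group was lowest and the 3 aged groups were not told apart, and for Cxcl5 and Csf3 edgeR called no step in its main fit. Without the filter on low counts, edgeR called Cxcl5 between aged anti-PD-1 and each of the other aged groups, as given above.

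The cluster on chromosome 5 did not move as 1 block. Ppbp, which encodes the platelet chemokine CXCL7, and Pf4, which encodes platelet factor 4, lie between Cxcl5 and Cxcl3. Neither was called between aged anti-PD-1 and aged control (-0.64 ± 0.20 with adjusted p = 0.0560, and -0.57 ± 0.22 with adjusted p = 0.109) or between combination and aged anti-PD-1 (-0.06 ± 0.20 and -0.01 ± 0.22). Against the young group both were higher in the aged anti-PD-1 group, Ppbp by 1.65 ± 0.20 (adjusted p = 0.000483) and Pf4 by 1.57 ± 0.23 (adjusted p = 0.00134). All 7 platelet markers, which include these 2, were called higher. Over all genes in this comparison, 8.09% were called higher and 7.16% lower. Cxcl15, a chemokine of lung epithelium also known as lungkine, was lower in the aged anti-PD-1 than in the young group (-0.90 ± 0.25, adjusted p = 0.0317), a call lost in 5 of 6 fits that left out a library, and was not called in the other 3 main comparisons. In the same comparison all 8 type 2 alveolar markers were lower (median -0.72), 5 of them in every fit that left out a library, and 4 of 6 type 1 markers (median -0.93), none of which was called without young replicate 3. The part of epithelial content in the value of Cxcl15 was not tested. Differences between neighbouring genes were not tested.

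**Figure D3:**
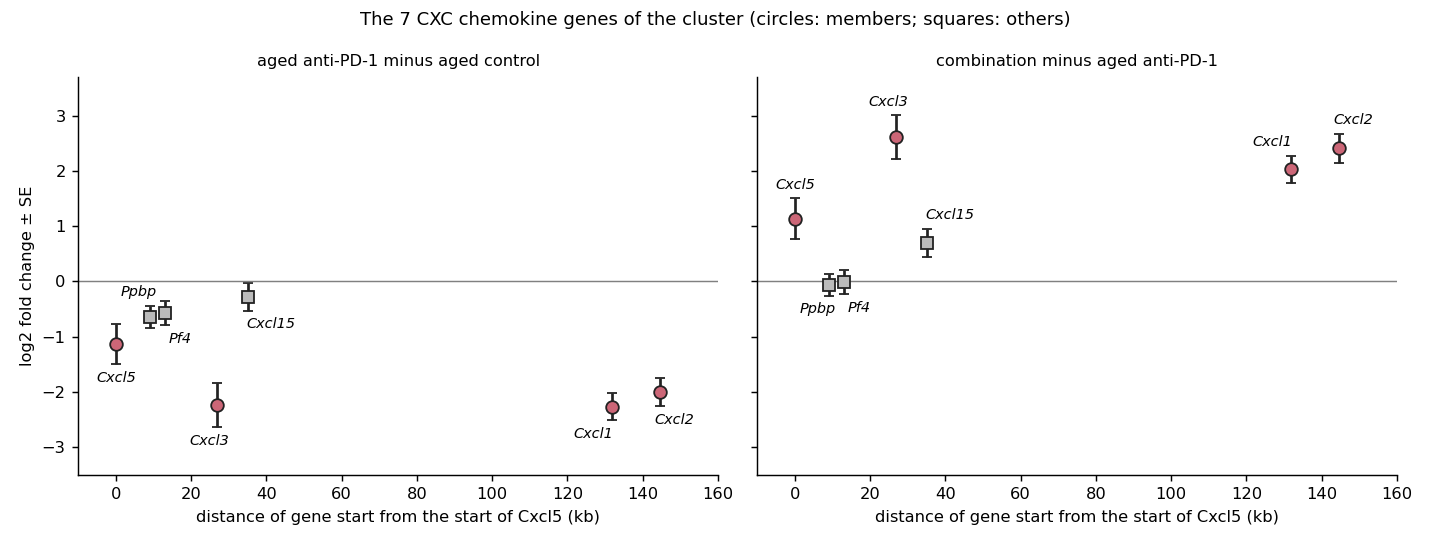
Log2 fold change ± SE (y axis) of the 7 CXC chemokine genes of the cluster against the distance of their start from the start of Cxcl5 (x axis, kb), for aged anti-PD-1 minus aged control and for combination minus aged anti-PD-1. Cxcl3, Cxcl1 and Cxcl2 (circles) lie farthest from 0 in both panels, while Ppbp and Pf4 (squares) lie at -0.64 and -0.57 on the left and near 0 on the right.

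Neutrophil transcripts varied between the aged groups in the same direction as the ligands. Of 17 neutrophil markers, 8 fell and 0 rose in aged anti-PD-1 against aged control, and 8 rose and 0 fell in combination against aged anti-PD-1. Over all genes, 5.58% were lower and 5.34% higher in the first comparison, and 4.67% higher and 4.35% lower in the second, which also applies to the lists that follow. S100a8 and S100a9, which encode the calprotectin subunits that fill neutrophil cytoplasm, fell by 1.39 ± 0.25 and 1.40 ± 0.21 in the first comparison and rose by 1.30 ± 0.25 and 1.34 ± 0.21 in the second. The decoy receptor gene Il1r2 fell by 1.49 ± 0.24 and rose by 1.70 ± 0.24, and the same held for Clec4d (-1.11 ± 0.15, then 1.01 ± 0.15). The median log2 fold change over the 17 was -1.08 in the first comparison and 0.98 in the second, smaller than the values of Cxcl1, Cxcl2 and Cxcl3.

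Summed over the 17 markers, levels ran from 920 to 1298 CPM in the young, from 2647 to 4468 in the aged control, from 1216 to 1562 in the aged anti-PD-1 and from 2593 to 3287 in the combination libraries. Aged control replicate 2, which had the high Cxcr2 value, also had the highest marker sum. The granule genes Ltf, Camp and Ngp and the surface marker Ly6g were not called in either comparison. Without aged anti-PD-1 replicate 1 or 3 the number of falls was 5, and the number of rises was 5 without either of these, 4 without combination replicate 2 and 6 without combination replicate 3. Whether the number of neutrophils sets the ligand levels or follows them was not tested.

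Cxcr2, itself expressed by neutrophils, was not called in either of these comparisons. Csf3r, which encodes the receptor for G-CSF and is among the 17, fell by 0.91 ± 0.21 (adjusted p = 0.0220) and rose by 0.80 ± 0.21 (adjusted p = 0.0361) in them, calls that were lost in 3 and 4 of 6 fits that left out a library. The other CXC receptor of neutrophils, Cxcr1, gave -0.41 and 0.16 and was not called. Between ages Cxcr1 rose by 1.73 ± 0.44 (adjusted p = 0.0176), as Cxcr2 did, on 46 counts in the young and 157 in the aged anti-PD-1 libraries, and the call was lost in 3 of 6 fits that left out a library. Ackr1, an endothelial decoy receptor for these chemokines, was not called in any of the 3 comparisons (0.25, -0.54 and 0.35).

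With age under anti-PD-1, 6 of 10 genes that signal below CXCR2 were called higher and 0 lower, with a median of 0.64, where 8.09% of all genes were higher and 7.16% lower. Among them were Arrb2 (0.73 ± 0.14, adjusted p = 0.00399), the arrestin that takes up the receptor, Pik3cg (0.87 ± 0.19, adjusted p = 0.00825), the PI3 kinase that G proteins activate, and Rac2 (0.64 ± 0.15, adjusted p = 0.0128), a GTPase of leukocyte movement. Without aged anti-PD-1 replicate 3 or young replicate 3 the count was 2. Of the 17 neutrophil markers 3 rose with age (Fpr1, Fpr2 and Clec4d), with 2 left in 4 of the 6 fits that left out a library and 5 without young replicate 2. These signalling genes are used by other leukocytes too. B cell markers summed to 170 to 210 CPM in the young and 340 to 380 in the aged anti-PD-1 libraries. Monocyte and interstitial macrophage markers summed to 469 to 471 CPM and 571 to 854 CPM in these groups. T cell markers overlapped, at 41.9 to 53.5 and 50.4 to 121 CPM. The part of these cells in the result was not tested. Between the aged groups the medians of the 10 were near 0, at -0.06 for anti-PD-1 against control and 0.09 for combination against anti-PD-1.

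**Figure D4:**
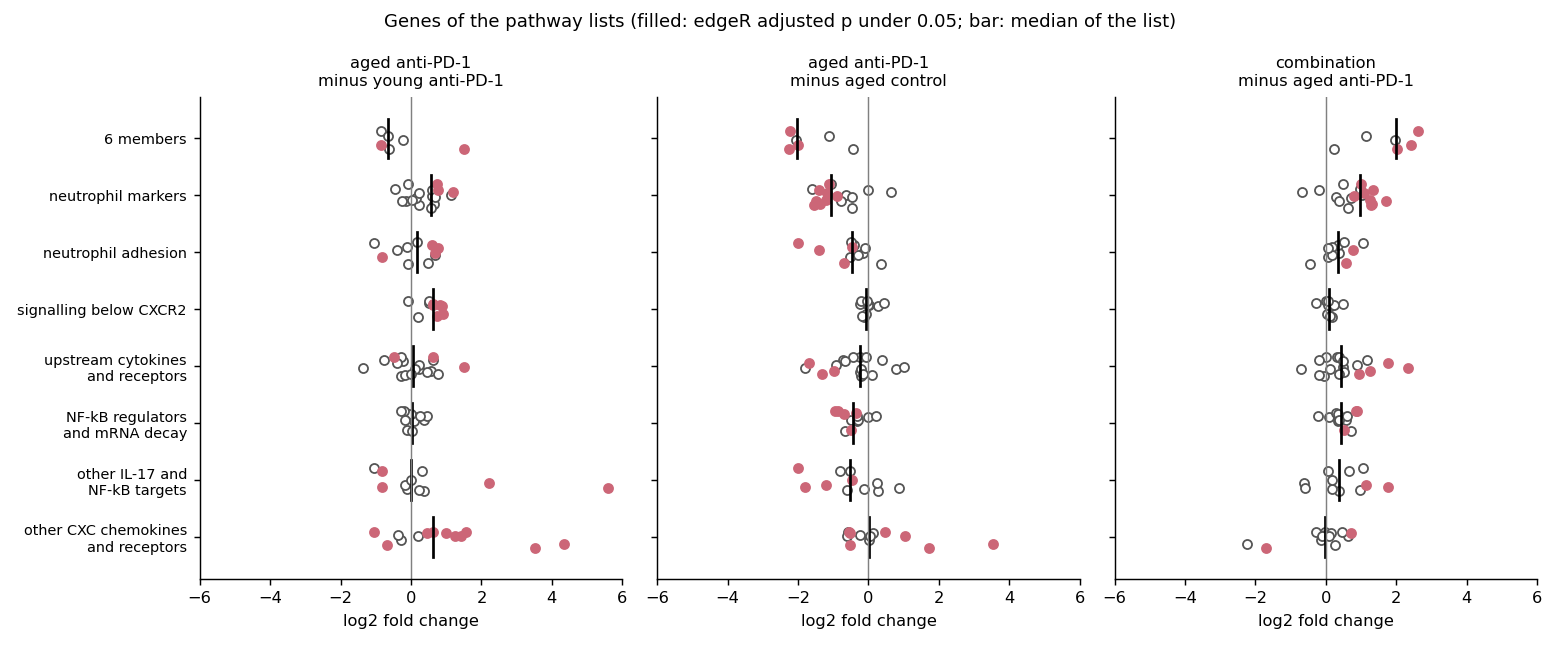
Log2 fold change (x axis) of single genes in the 6-gene set and in 7 lists (y axis) for 3 comparisons, with filled points where the edgeR adjusted p was under 0.05 and a bar at each median. The 6 genes have medians of -0.64, -2.04 and 1.99, against -1.08 and 0.98 for the neutrophil markers in the centre and right panels. In those panels the median of the 6 rests in part on Csf3, which passed the filter through groups where it was high.

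The cytokines that induce these chemokines moved in part. Of 18 tested upstream cytokines, receptors and regulators, 3 fell and 0 rose in aged anti-PD-1 against aged control. Il1b, a main inducer, fell by 0.99 ± 0.21 (adjusted p = 0.0149), Il6, a cytokine induced along with the chemokines, by 1.70 ± 0.37 (adjusted p = 0.0194) and Csf1, the macrophage growth factor, by 1.33 ± 0.21 (adjusted p = 0.00552). Il1b ran from 483 to 886 CPM in aged control, from 320 to 415 in aged anti-PD-1 and from 743 to 1016 in combination libraries, so aged anti-PD-1 lay below both. The count was 1 without aged anti-PD-1 replicate 1 or 3 or aged control replicate 2, and 5 without aged control replicate 1.

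In combination against aged anti-PD-1, 4 of the 18 rose and 0 fell: Il1b (1.26 ± 0.21, adjusted p = 0.00656), Il6 (1.77 ± 0.37, adjusted p = 0.0179), Csf1 (0.93 ± 0.20, adjusted p = 0.0181) and Il17a (2.34 ± 0.63, adjusted p = 0.0356). Il17a, the cytokine that stabilises the ligand mRNAs, had 11 counts over the aged anti-PD-1 and 43 over the combination libraries, and its call was lost in 5 of 6 fits that left out a library. Like Csf3, it passed the filter through the groups where it was higher, so its place in the count of 4 is not independent of the groups. Without aged anti-PD-1 replicate 1 the count of 4 became 1, and without aged anti-PD-1 replicate 3 or combination replicate 2 it became 2. Il17f and Il36a had too few counts to be tested. Tnf gave -0.94 (adjusted p = 0.118) and 0.87 (adjusted p = 0.161) in the 2 comparisons, and Il1a was not called in either.

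Regulators of NF-kB and of mRNA decay followed with smaller changes. Of 12, 5 fell and 0 rose under anti-PD-1 against control: Bcl3 (-0.87 ± 0.12, adjusted p = 0.00370), Nfkbia (-0.70 ± 0.12, adjusted p = 0.00636), Relb (-0.51 ± 0.10), Zc3h12a (-0.94 ± 0.21) and Rela (-0.36 ± 0.09). Bcl3 is a nuclear IkB protein, Nfkbia encodes the inhibitor IkB-alpha, which NF-kB itself induces, and Zc3h12a encodes the ribonuclease Regnase-1. Bcl3 (0.85 ± 0.12, adjusted p = 0.00338), Relb (0.50 ± 0.10) and Zc3h12a (0.89 ± 0.21) rose in combination against aged anti-PD-1, 3 of 12 with 0 lower. The 5 falls became 10 without aged control replicate 1, and 3 without aged anti-PD-1 replicate 2 or 3 or aged control replicate 2, and the 3 rises became 1 without aged anti-PD-1 replicate 2. With age under anti-PD-1 the median of the 12 was 0.017.

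Of 11 other targets of IL-17 and NF-kB, 4 fell and 0 rose under anti-PD-1 in aged mice, and 2 rose and 0 fell in the combination. Ccl2, the monocyte chemokine gene, had the pattern of the ligands: 49.3 to 63.6 CPM in aged control, 11.9 to 23.6 in aged anti-PD-1 and 50.1 to 65.7 in combination libraries. It fell by 1.79 ± 0.21 (adjusted p = 0.00177) and rose by 1.77 ± 0.21 (adjusted p = 0.00167). Cebpb, a transcription factor of the myeloid inflammatory response, fell by 1.22 ± 0.18 (adjusted p = 0.00431) and rose by 1.13 ± 0.18 (adjusted p = 0.00541). Sele, the endothelial E-selectin gene (-2.01 ± 0.44), and Cebpd (-0.48 ± 0.14) were called in the first comparison only. Lcn2 (0.26 and 0.36) and Saa3 (0.23 and -0.62), which are textbook IL-17 targets, were not called in either. The median of the 11 was -0.51 in the first comparison and 0.36 in the second. Their summed level ran from 1861 to 2034 CPM in aged control, 1161 to 1331 in aged anti-PD-1 and 1710 to 1871 in combination libraries. Leaving out any 1 of the aged anti-PD-1 libraries reduced the 4 falls to 2, and the count of 2 rises held in every such fit. With age under anti-PD-1 the list was split: Saa3 rose by 2.21 ± 0.59 (adjusted p = 0.0322), while Ccl2 fell by 0.82 ± 0.20 (adjusted p = 0.0175) and Icam1 by 0.83 ± 0.19 (adjusted p = 0.0102). The call of Saa3 was lost in 5 of 6 fits that left out a library, and without aged anti-PD-1 replicate 3 or young replicate 3 neither fall was called. Ccl20, the chemokine of CCR6 cells, was called higher as well, on 4 counts over the young and 211 over the aged anti-PD-1 libraries. It passed the filter only through the aged groups, and its fold is not given.

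Genes by which neutrophils stick to vessel walls changed in a few members. Of 11, 4 fell under anti-PD-1 in aged mice: Selp (-1.40 ± 0.20, adjusted p = 0.00407), which encodes P-selectin, Sele, Vcam1 (-0.47 ± 0.12) and the integrin gene Itgam (-0.69 ± 0.15). Selp (0.76 ± 0.21, adjusted p = 0.0370) and Itgam (0.56 ± 0.15, adjusted p = 0.0367) rose in the combination. The fall of Selp held in every fit that left out a library, while the other calls were fragile. The 4 falls became 2 without aged anti-PD-1 replicate 1, 1 without replicate 2 or 3 of that group and 7 without aged control replicate 1. The 2 rises became 0 or 1 in every fit that left out a library. Of 7 blood endothelial markers, 4 rose under anti-PD-1 in aged mice and 4 fell in the combination, opposite to Selp. Without aged anti-PD-1 replicate 1 or 2 or aged control replicate 2, only Pecam1 of the 4 that rose was still called, and without combination replicate 2 only Pecam1 of the 4 that fell. The part of endothelial content in these values was not tested.

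CXC chemokines and receptors outside the neutrophil axis moved in both directions. Of 13 tested, 4 rose and 3 fell in aged anti-PD-1 against aged control. Cxcl13, which draws B cells through CXCR5, was 1.72 ± 0.35 higher (adjusted p = 0.0136), and Cxcl9, a ligand of CXCR3 induced by interferon gamma, was 3.54 ± 0.82 higher (adjusted p = 0.0273) with a wide range of 14.0 to 120 CPM in aged anti-PD-1 libraries. The call of Cxcl9 was lost on leaving out aged control replicate 1, 2 or 3 (adjusted p up to 0.0972). In the combination Cxcl13 fell by 1.70 ± 0.35 (adjusted p = 0.0157) while Cxcr4, the receptor that holds neutrophils in marrow and guides many leukocytes, rose by 0.73 ± 0.12 (adjusted p = 0.00589). Cxcl13 was thus highest in the aged anti-PD-1 group, at 20.9 to 57.7 CPM, and lowest in the young group, at 2.70 to 3.82 CPM. The later fall of Cxcl13 was not called without combination replicate 2. Without aged anti-PD-1 replicate 1 or aged control replicate 2 the 3 falls became 0, and without aged control replicate 3 there were 2 rises and 1 fall. Cxcr4 was among the 3 falls (-0.51, adjusted p = 0.0203), and its call was lost in 4 of 6 fits that left out a library.

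Immediate early genes, which respond within minutes to stress and tissue handling, differed between libraries. They summed to 3990, 6600 and 6966 CPM in aged control replicates 1, 2 and 3, and replicate 1 was also the low library for Cxcl2 and Cxcl3, but not for Cxcl1. In aged anti-PD-1 replicates 1, 2 and 3 the sums were 6816, 4909 and 5279 CPM. There replicate 1, with the highest sum, had the lowest Cxcl2 of its group. Aged control replicate 1 also stood apart in type 1 alveolar markers, with 8067 CPM against 3618 and 4342 in replicates 2 and 3. The median over the 9 immediate early genes was -0.24 between aged anti-PD-1 and aged control and 0.23 between combination and aged anti-PD-1, where Junb was called (0.80 ± 0.19). Of 13 clock genes, 1 rose and 2 fell under anti-PD-1 in aged mice and 4 fell in the combination, with Per3 called in both (1.70 ± 0.34 and -1.86 ± 0.34). None of these 4 falls was called without combination replicate 2, and none of the earlier 3 changes without aged control replicate 2. The share of mitochondrial counts moved with the groups, from 6.05% to 7.22% in young, 7.32% to 10.4% in aged control, 7.88% to 11.9% in aged anti-PD-1 and 11.5% to 14.9% in combination libraries. The part of these differences in the ligand levels was not tested.

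**Figure D5:**
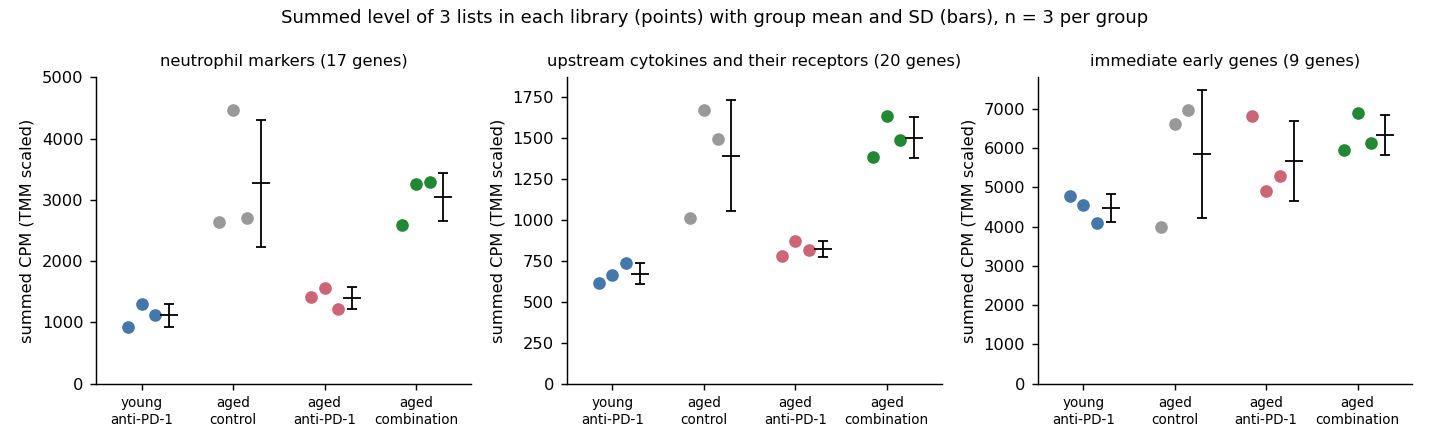
Summed CPM (TMM scaled, linear axis from 0) of 3 gene lists in each of the 12 libraries, as points by group, with the group mean and SD as bars (n = 3). The neutrophil marker sum is 1216 to 1562 in aged anti-PD-1 and 2593 to 3287 in combination libraries, while the immediate early genes overlap between all aged groups.

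Across the 12 libraries Cxcl1, Cxcl2 and Cxcl3 moved together, mostly through the difference between groups. The log2 CPM of Cxcl2 and Cxcl3 had a Pearson r of 0.948, and 0.656 after the group means were removed. For Cxcl1 and Cxcl2 r was 0.879, and 0.182 within groups, a much weaker relation. For Cxcl1 and Cxcl3 it was 0.827, and -0.053 within groups. Cxcl5 had r of 0.634, 0.640 and 0.549 with Cxcl1, Cxcl2 and Cxcl3, and -0.168, -0.133 and -0.331 within groups. Cxcr2 had r of 0.430, 0.426 and 0.367 with Cxcl1, Cxcl2 and Cxcl3, and -0.027, 0.584 and 0.161 within groups. These values describe libraries that share groups, and the part of reads common to Cxcl2 and Cxcl3 was not tested.

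Among genes other than the members whose mean log2 CPM was 0 or more, those most like each member over the 12 libraries were found by Pearson r of log2 CPM. For Cxcl2 they were Lmnb1 (0.980), Pim1 (0.979) and Sema4b (0.965), and within groups Pim1 still had 0.967. For Cxcl1 they were Gstp1 (0.954), Nrn1 (0.951) and Mt2 (0.947), and for Cxcl3 Ccrl2 (0.952), Gm6136 (0.949) and Ptp4a2 (0.948). Cxcl2 itself, left out as a member, had r of 0.94809 with Cxcl3, just above the 0.94804 of Ptp4a2. Cxcr2 was closest to Sh2d3c (0.968), Trim30b (0.963) and Nlrp12 (0.960). Cxcl5 was closest to Flnc (0.910) and Csf3 to Gm6560 (0.904), both at lower r. With the members left out, none of the nearest genes of 1 member recurred among those of another.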

How the data were processed

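Whole-lung poly(A) RNA was made into directional libraries, per the labels' protocols. The deposited values are raw read counts per gene, not normalized by the authors. The submitters' processing notes name bcl2fastq 1.8.4, Trimmomatic, HISAT2, featureCounts 1.6.3 and mm10; the strand setting is not given in the sources used here.

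Genes were kept by filterByExpr (minimum count 10, minimum total 15), scaled by TMM and fitted with edgeR 4.0.16 (R 4.3.3) as 4 group means over 12 libraries, with robust dispersion and 8 residual degrees of freedom. Tests were two-sided, and the SE is the absolute log2 fold change over the square root of F. The script was tested on simulated data. Levels per length used the main coding transcript in GENCODE M21. All 6 genes were named throughout. From each list, up to 4 called genes by p and 2 uncalled genes by level were eligible in each comparison; others named, among them Lcn2, Saa3, Tnf and the neutrophil granule genes, were chosen after their values were seen. The 6 genes and all lists were chosen with earlier results of these data known. Alternatives were DESeq2 1.42.0, limma-voom (limma 3.58.1), other scalings and filters, a replicate block, fits of 2 groups and leaving out each library. Figures used Python 3.11.15 and matplotlib 3.10.9.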

Additional observations from a re-analysis of the deposited data

How the results depend on the processing

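Of 351 fold changes of the 6 genes under the alternatives, 321 kept direction and call, 10 lost the call, 6 gained one and 14 changed sign; the cause was not tested. Of 177 added against the young group, 164 kept both. The count of the 6 genes called between ages (2) was 0 without the filter, 4 when only the 2 groups were fitted, and 0 to 1 on leaving out a library. Sign changes, none of them in a called value, were as follows. Csf3 between ages gave 0.44 with limma-voom, and from -0.79 to 0.58 on leaving out a library (0.05 without aged anti-PD-1 replicate 2). For anti-PD-1 against control, leaving out a library gave -0.69 to 0.084 for Cxcr2. For combination against aged control, Cxcl5 gave -0.032 with limma-voom, -0.068 with library totals, -0.0063 without the filter, and -0.42 to 0.33 on leaving out a library, and the same step gave -0.40 to 0.040 for Cxcl1, -0.45 to 0.33 for Cxcr2 and -0.54 to 0.21 for Csf3. The number of all genes called moved by over 1.5 times: it was 881 with only the 2 groups fitted and as low as 607 without a library for anti-PD-1 against control (2025), 3038 with library totals and as low as 260 for combination against aged anti-PD-1 (1674), as low as 1160 between ages (2830), and, for combination against aged control (0), 78 with DESeq2, 11 without the filter and 13 without combination replicate 1.

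Libraries with the same replicate number did not deviate together: over 18 pairs the median r was -0.0120 (from -0.169 to 0.171), and 3 of 12 libraries were closest to their own number, so the numbers were not taken as pairs. With the replicate block, 1 call was lost, that of Cxcl3 between aged control and young (adjusted p = 0.0805). Depth limits Csf3 above all, with 107 counts in 12 libraries, and Cxcl5 with 663.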
